A study of Oryza sativa with 12 samples.

Results

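The data described here compare 2 near-isogenic rice lines under high night temperature at the grain filling stage: the heat-tolerant line XN0437T and the heat-sensitive line XN0437S. The members are all loci of the deposited transcriptome table that passed a filter on low counts, 33281 of 50708, each measured as tolerant minus sensitive under stress. The comparison rests on 6 libraries of rRNA-depleted total RNA, 3 of XN0437T and 3 of XN0437S, all of them from stressed plants. A further 6 libraries, 3 of each line without stress, served as the control comparison. The tissue is labelled only as rice, and no source used here states the temperature, how long the stress lasted or how many plants a library pools. Whether the 3 libraries of a group represent different plants is not stated either. The p-values rest on the variation among libraries within groups, possibly technical, estimated over all 12 libraries with the controls included.

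A filling rice grain imports sucrose, cleaves it with sucrose synthase, activates the glucose with ADP-glucose pyrophosphorylase and polymerizes it into starch, while the endoplasmic reticulum (ER) folds large amounts of storage protein. Warm nights are known to disturb this work, and rice grains ripened in heat are often chalky. Chaperones of the ER, such as the BiP proteins, rise when unfolded protein builds up there. Alpha-amylases cut starch and normally act during germination. Near-isogenic lines share most of the genome and differ in a few introgressed segments.

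The 6 stress libraries held between 88027644 and 95899082 counts. Levels are given below in CPM, the count of a locus relative to the total of its library, scaled by edgeR's trimmed mean of M-values (TMM). Correlations of log2 CPM across loci were 0.943 to 0.945 within a stress group and 0.935 to 0.939 between the groups, so that no stress library stood apart. The 7 endosperm markers had a summed level of 22526 to 26077 CPM in XN0437S and of 28103 to 31595 CPM in XN0437T under stress. The 4 embryo markers summed to 2311 to 2478 CPM in XN0437S and to 1886 to 1966 CPM in XN0437T. The 5 markers of green tissue summed to 623 to 660 CPM in XN0437S and to 568 to 590.0 CPM in XN0437T. Of the endosperm markers, glutelin type-A 1 and type-B 4 were called higher, and granule-bound starch synthase 1 and the transcription factor RISBZ1 lower. The median log2 difference of these 7 markers was -0.04. Glutelins A1 and A2 made up most of their sum, with means of 11469 and 6043 CPM in XN0437S and of 15119 and 7587 CPM in XN0437T. Glutelin A2 did not pass the test (adjusted p = 0.6, edgeR). Of the embryo and green tissue markers 2 each were lower. The 2 oleosins carried most of the embryo sum, and the embryo markers RAB16A and VP1 were not called. Markers of endosperm, embryo and green tissue were thus all read, and no marker sum overlapped between the lines. Which tissues the libraries held was not settled by these few markers. Single loci did not overlap, in one direction or the other, at 22.5% of all tested loci. In bulk RNA, fewer cells of a type and less RNA per cell cannot be told apart, and the part of tissue makeup in the results below was not tested.

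Under stress, 1132 loci differed between the lines at an adjusted p under 0.05 (edgeR quasi-likelihood test, Benjamini-Hochberg over all tested loci), which is 3.4% of those tested. Of these, 568 (1.71%) were higher and 564 (1.69%) lower in XN0437T, and 235 (0.706%) differed by at least 2-fold, 153 higher (0.46%) and 82 lower (0.246%). At an unadjusted p under 0.05 there were 4646. The median size of the called differences was 0.53 on the log2 scale, and the median over all tested loci was 0.00. With 1 of the 6 stress libraries left out in turn, the count ranged from 672 without XN0437S replicate 1 to 763 without XN0437S replicate 3 or XN0437T replicate 2; it was 703 without XN0437S replicate 2, 688 without XN0437T replicate 1 and 716 without XN0437T replicate 3. Without stress, in the other 6 libraries, 1804 loci (5.42%) differed between the lines, 841 higher (2.53%) and 963 lower (2.89%) in XN0437T. The higher share of those control calls was 46.6%, and 75.2% with libraries scaled by their totals alone, a scaling that moved the control median over all loci by 0.11 on the log2 scale. Without XN0437T control replicate 1, the control count was 1098. At 2-fold or more, 315 loci (0.946%) differed in control, 140 higher (0.421%) and 175 lower (0.526%). Both comparisons called 298 loci, 26.3% of the stress calls and 16.5% of the control calls, and 94 of these 298 had opposite directions. The line difference itself changed between control and stress at 867 loci (2.61%), 422 toward higher (1.27%) and 445 toward lower (1.34%) levels in XN0437T under stress. Of these, 48.7% were toward higher, and 32% with library totals alone. At 2-fold or more, the change was called at 274 loci (0.823%), 181 up (0.544%) and 93 down (0.279%).

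Gene lists built from the table's own descriptions differed in how many members passed the test. In most lists most members passed in neither direction. Over all tested loci 1.71% were higher and 1.69% lower, and the list counts below are to be read beside these shares. Among the members that did pass, more were higher than lower in XN0437T in the HSP70, ER chaperone, DnaJ and alpha-amylase lists, and more were lower than higher in the starch synthesis, phenylpropanoid, cellulose synthase and photosynthesis lists. Of the 40 description lists and 8 Gene Ontology (GO) lists, 5 had no call: HSP90 proteins, organelle ribosomal proteins, proteasome subunits, the antioxidant enzymes and histones.

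**Figure D1:**
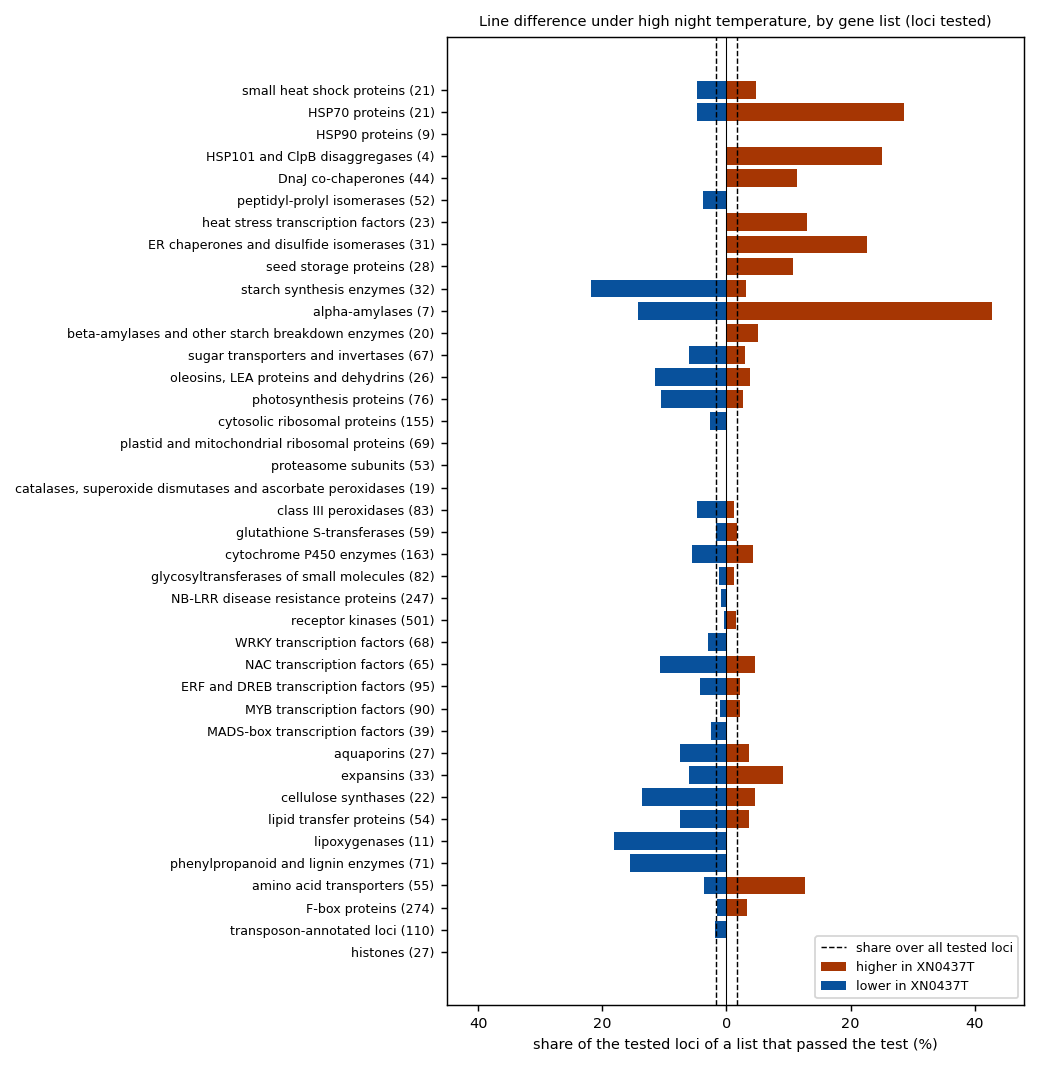
Share of the tested loci of each description list that passed the test under stress, in percent, with bars to the right for loci higher in XN0437T and to the left for loci lower in XN0437T; the number tested stands in brackets. Dashed lines mark the shares over all 33281 tested loci, 1.71% higher and 1.69% lower; alpha-amylases reach farthest to the right, with 3 of 7, and starch synthesis enzymes farthest to the left, with 7 of 32.

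Several chaperones of the ER lumen were higher in the tolerant line under stress, among them BiP1, BiP4 and a disulfide isomerase. BiP1 (LOC_Os02g02410, chromosome 2, 838717 to 842672), the main HSP70 of the ER lumen, stood at 1530.4, 1536 and 1521 CPM in the 3 XN0437S libraries and at 2216, 2201 and 2253 CPM in the 3 XN0437T libraries. All 3 tolerant libraries lay above all 3 sensitive ones, as they did at 11.3% of all tested loci (11.2% the other way round), and the spread within each line was small beside the gap. The log2 difference was 0.54 ± 0.03 (SE), with an adjusted p of 1.65e-06. Without stress the order was the other way, at 789 ± 14.7 CPM (SD, n = 3) in XN0437S and 732 ± 9.61 CPM in XN0437T, a difference that did not pass the test (adjusted p = 0.0567, edgeR). The change of the line difference between control and stress was 0.65 on the log2 scale and passed the test (adjusted p = 7.59e-06).

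BiP4 (LOC_Os05g35400, chromosome 5, 21033769 to 21036041), a second BiP locus, had 5.27, 4.19 and 6.15 CPM in XN0437S and 16.2, 18.8 and 17.0 CPM in XN0437T. The groups did not overlap, and the fitted ratio was 3.33-fold (log2 1.74 ± 0.28, adjusted p = 0.00421, edgeR). It was near 0 in both control groups, at 0.223 and 0.362 CPM, and the change of its line difference between control and stress did not pass the test. Protein disulfide isomerase-like 2-3 (LOC_Os09g27830), which forms and reshuffles disulfide bonds of proteins in the ER, had 133, 125 and 111 CPM against 189.6, 186 and 192 CPM, log2 0.62 ± 0.07 with an adjusted p of 0.000312. In control it was lower in XN0437T, at 38.5 against 53.0 CPM (adjusted p = 0.00209), and the change between the conditions passed the test (adjusted p = 8.85e-05). The J-domain co-chaperone described as P58IPK homolog B (LOC_Os01g74580) behaved likewise, with 16.1 CPM against 26.9 CPM under stress (log2 0.74, adjusted p = 0.000611) and 19.4 against 14.4 CPM in control (adjusted p = 0.0161).

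The list of ER chaperones and disulfide isomerases had 7 of 31 tested members called higher and 0 called lower, against 1.71% and 1.69% of all loci, and its median log2 difference was 0.11. A stromal cell-derived factor 2-like protein (LOC_Os08g34190), a partner of ER chaperones in plants, had 42.9, 42.4 and 37.1 CPM against 62.8, 62.4 and 59.8 CPM (log2 0.60 ± 0.09, adjusted p = 0.00194). LOC_Os06g50300, which the table annotates only to the ER and which entered the list by its identifier, had a log2 difference of 0.53 ± 0.09 (adjusted p = 0.00558). One called member, LOC_Os03g09220, is a protein phosphatase 2C whose description matched the search word for BiP, with a log2 difference of 0.64. LOC_Os06g50300 was chosen after its values were seen. With 1 stress library left out in turn, 6 or 7 members were called higher. In control, 0 members of the list were called higher and 4 lower.

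**Figure D2:**
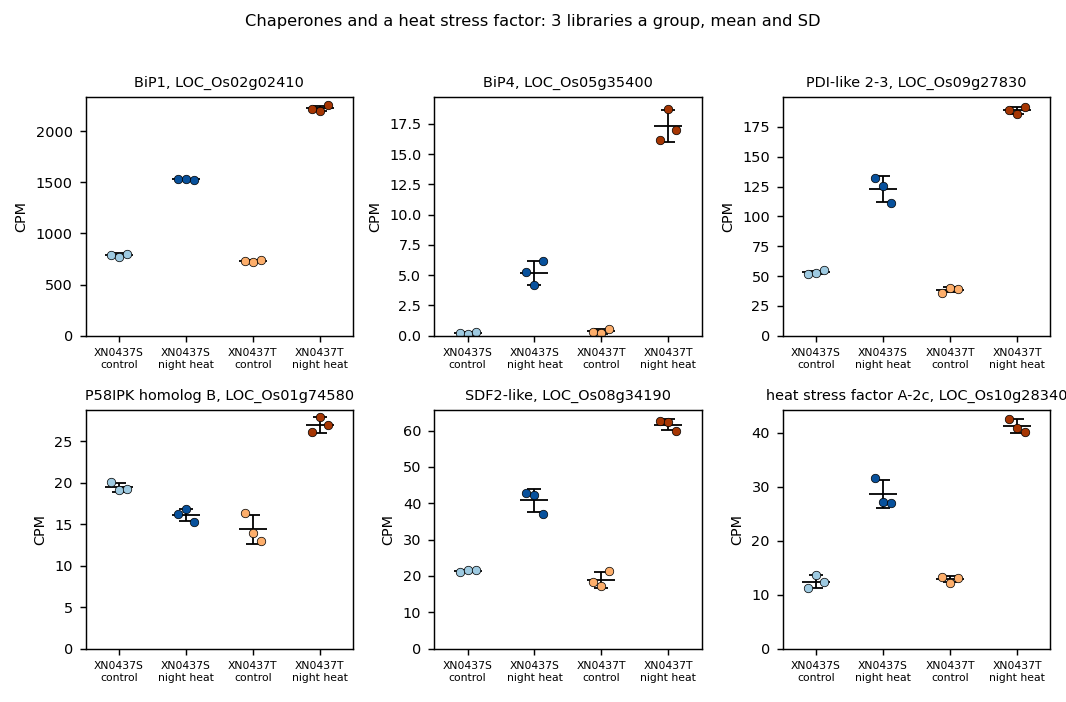
CPM (linear axis) of 6 loci in the 4 groups, with 3 libraries a group as points, the mean as a dash and the SD as bars. In each panel the 3 XN0437T libraries under night heat lie above the 3 XN0437S libraries under night heat; BiP1 reaches 2201 to 2253 against 1521 to 1536 CPM.

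Among the DnaJ proteins, which stimulate the ATPase of HSP70 chaperones, 5 of 44 were called higher and 0 lower. With 1 stress library left out, the count was 5. LOC_Os03g18200, described as ERDJ3A, had 67.0, 81.6 and 71.3 CPM against 123, 115 and 116 CPM (log2 0.69 ± 0.12, adjusted p = 0.00545), and the ER member ERDJ3B (LOC_Os05g06440) had a log2 difference of 0.33 ± 0.06 (adjusted p = 0.00626). The plastid DnaJ 11 (LOC_Os06g50230) had 9.70 against 18.3 CPM (log2 0.92 ± 0.12, adjusted p = 0.00113). None of these 3 loci was called in control, where the adjusted p was 0.238, 0.375 and 0.983. ERDJ3B was chosen after its values were seen.

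The HSP70 list, which also holds both BiP loci, had 6 of 21 members called higher and 1 lower. The higher count was 3 or 4 when any 1 of the 6 stress libraries was left out, and 3 with libraries scaled by their totals alone. A cytosolic heat shock cognate protein (LOC_Os11g47760) had 1977, 2017 and 1991 CPM in XN0437S and 2370.3, 2391 and 2422 CPM in XN0437T, groups that did not overlap but differed by a log2 of only 0.26 ± 0.03 (adjusted p = 0.000425). A pair of loci that the table describes as mediator subunit 37c and annotates to the heat response, LOC_Os01g62290 and LOC_Os05g38530, had log2 differences of 0.36 and 0.41 (adjusted p = 0.000552 and 0.00464, edgeR). These last 3 loci were chosen after their values were seen. The stromal HSP70 of plastids (LOC_Os12g14070) went the other way, at 1088, 1083 and 1062 CPM in XN0437S against 898, 895 and 875 CPM in XN0437T (log2 -0.28 ± 0.03, adjusted p = 0.000347).

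Heat stress transcription factors, which switch on chaperone genes, had 3 of 23 members called higher and 0 lower. Factor A-2c (LOC_Os10g28340) had 31.6, 27.2 and 27.0 CPM against 42.6, 40.8 and 40.1 CPM, log2 0.53 ± 0.09 with an adjusted p of 0.00603. Factor B-2b (LOC_Os08g43334) had 32.0, 31.5 and 26.7 CPM against 41.9, 45.3 and 44.0 CPM, log2 0.54 ± 0.09 with an adjusted p of 0.00479. In control the lines had similar means for both factors (12.4 and 12.9 CPM for A-2c), but the change of the line difference did not pass the test for either (adjusted p = 0.0801 and 0.108).

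Small heat shock proteins, which hold unfolding proteins in a refoldable state, had 1 of 21 members called higher and 1 lower. The mitochondrial 24.1 kDa protein (LOC_Os02g52150) was the one called higher, at 114, 107 and 109.5 CPM against 145, 153 and 145 CPM, and its adjusted p of 0.0226 became 0.0604 to 0.0932 when any 1 of the 6 stress libraries was left out. Summed over the 21 loci, XN0437S libraries ranged from 687 to 984 CPM and XN0437T libraries from 972 to 1066 CPM, so the lines overlapped. HSP90 proteins had 0 calls among 9 tested, with sums of 1098 to 1648 CPM and 1513 to 1733 CPM, which also overlapped. Loci annotated in GO to the response to heat had 12 higher and 7 lower of 168, and 5 to 7 higher and 4 or 5 lower with any 1 stress library left out. The GO list for protein folding had 18 higher and 2 lower of 298, and 10 to 12 higher with any 1 library left out. Disaggregases of the ClpB family, which pull aggregates apart, had 1 of 4 higher, a call held with a library left out only without XN0437S replicate 3 and lost with library totals alone. Peptidyl-prolyl isomerases, which help proline bonds to turn, had 0 higher and 2 lower of 52, a share of 3.85% near the 3.4% of all loci. Of 38 loci on the GO list for ER stress, 5 were higher and 0 lower, with 2 or 3 higher when any 1 stress library was left out.

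Alpha-amylase transcripts were more than 2-fold higher in sum in the tolerant line under stress. Over the 7 tested alpha-amylase loci, the summed level was 84.5, 87.7 and 90.5 CPM in the XN0437S libraries and 199, 212 and 207 CPM in the XN0437T libraries. In control the lines were close, at 95.5 ± 4.02 CPM (SD, n = 3) in XN0437S and 85.6 ± 3.80 CPM in XN0437T. Isozyme 3E (LOC_Os08g36900, chromosome 8, 23335165 to 23337151) had 47.1, 44.6 and 45.5 CPM in XN0437S and 140.4, 156 and 149 CPM in XN0437T. The log2 difference was 1.70 ± 0.07, with an adjusted p of 2.13e-07. In control it was 0.35 (adjusted p = 0.00875), and the change between the conditions passed the test (adjusted p = 1.15e-05).

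Isozymes 3A and 3D changed sides between the conditions. Isozyme 3A (LOC_Os09g28400, chromosome 9, 17288993 to 17291295) had 6.03, 4.78 and 6.22 CPM in stressed XN0437S and 19.1, 21.9 and 22.1 CPM in stressed XN0437T (log2 1.89 ± 0.26, adjusted p = 0.00147). Without stress it had 11.8, 7.59 and 8.34 CPM in XN0437S and 0, 0 and 0.0472 CPM in XN0437T, close to no reads in the tolerant line. Isozyme 3D (LOC_Os08g36910), which lies near 3E on chromosome 8, had 1.41, 1.51 and 1.17 CPM against 9.76, 7.08 and 6.85 CPM under stress. The 3D groups did not overlap, but the adjusted p of 0.0216 became 0.0514 to 0.09 when any 1 of the 6 stress libraries was left out. In control 3D had 4.48 CPM in XN0437S and 0.0630 CPM in XN0437T (adjusted p = 0.000394). For both isozymes the change of the line difference passed the test (adjusted p = 8.48e-07 and 0.000243, edgeR).

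One alpha-amylase locus, LOC_Os02g52710, was lower in XN0437T, at 2.59, 3.58 and 3.45 CPM against 0.496, 0.819 and 1.06 CPM (adjusted p = 0.0335). This call was lost without any 1 of the 6 stress libraries, with adjusted p values of 0.0607 to 0.13. In all, 3 of the 7 loci were called higher and 1 lower under stress, against 1 higher and 3 lower in control. With any 1 stress library left out, 2 were called higher and 0 lower. Beta-amylase 3 of the plastid (LOC_Os10g41550), which releases maltose from starch, was the 1 call among 20 other starch breakdown enzymes, with 67.8, 66.9 and 68.5 CPM against 124, 126 and 117 CPM (log2 0.85 ± 0.06, adjusted p = 6.69e-06). Its level in stressed XN0437T was near that of both control groups (122 and 129.5 CPM), and stressed XN0437S stood apart below.

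Most of the starch synthesis enzymes called under stress were lower in the tolerant line, by modest amounts. The 32 tested loci summed to 10636 to 10798 CPM in the XN0437S libraries and to 8896 to 9031 CPM in the XN0437T libraries, with no overlap. In control the sums were 18433 ± 263 CPM and 18518 ± 269 CPM (SD, n = 3 each). Of the 32 loci, 7 were called lower and 1 higher under stress, against 5 lower and 5 higher in control. The lower count was 7 or 8 with 1 stress library left out. The higher count was 1 without XN0437T replicate 3 and 0 without any other stress library. It was also 0 with libraries scaled by their totals alone and in a fit of the 6 stress libraries.

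ADP-glucose pyrophosphorylase makes the sugar nucleotide for starch from large and small subunits. Its small subunit 2 (LOC_Os08g25734) had 1241, 1273 and 1273 CPM in XN0437S and 882, 891 and 884 CPM in XN0437T (log2 -0.51 ± 0.03, adjusted p = 3.99e-06). The large subunit 2 (LOC_Os01g44220) had 1606, 1609 and 1638 CPM against 1226, 1197 and 1242 CPM (log2 -0.40 ± 0.04, adjusted p = 0.000173), and small subunit 1 (LOC_Os09g12660) had a log2 difference of -0.36 ± 0.05 (adjusted p = 0.00115). All 3 subunit loci were also called lower in XN0437T without stress, at log2 values of -0.22, -0.25 and -0.42. Only for small subunit 2 did the change between the conditions pass the test (adjusted p = 0.00479, against 0.24 and 0.781). Sucrose synthase 2 (LOC_Os06g09450), which splits imported sucrose, had 605, 618 and 642 CPM against 453, 445 and 471 CPM (log2 -0.45 ± 0.04, adjusted p = 5.15e-05). Sucrose synthase 4 (LOC_Os03g22120) had a log2 difference of -0.27 under stress and of 0.36 in control, a change that passed the test (adjusted p = 9.65e-05). The call on sucrose synthase 4 was lost with libraries scaled by their totals alone. Small subunit 1 and sucrose synthase 4 were chosen after their values were seen.

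The branching enzyme 2 locus (LOC_Os02g32660), which adds branches to amylopectin, had 444 against 352 CPM (log2 -0.33 ± 0.04, adjusted p = 0.00113), a call lost with library totals alone. Granule-bound starch synthase 1 (LOC_Os06g04200), the Waxy enzyme that makes amylose, had 2232, 2245 and 2026 CPM in XN0437S and 1692, 1730.5 and 1745 CPM in XN0437T (log2 -0.33 ± 0.04, adjusted p = 0.000437). In control it was higher in XN0437T, at 4932 against 4432 CPM (adjusted p = 0.0399). Pyruvate, phosphate dikinase 1 (LOC_Os05g33570), which links glycolysis and amino acid metabolism in the rice endosperm, had 1006, 1026 and 1013 CPM against 712, 686 and 692 CPM (log2 -0.54 ± 0.03, adjusted p = 1.65e-06). These last 3 loci were chosen after their values were seen. The cytosolic fructose-1,6-bisphosphatase (LOC_Os05g36270), an enzyme of sucrose synthesis, was higher in XN0437T, at 42.0, 49.0 and 47.1 CPM against 76.1, 73.8 and 74.5 CPM (log2 0.70 ± 0.07, adjusted p = 0.000195). The GO list for starch metabolism, which joins synthesis and breakdown, had 7 higher and 6 lower of 71.

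**Figure D3:**
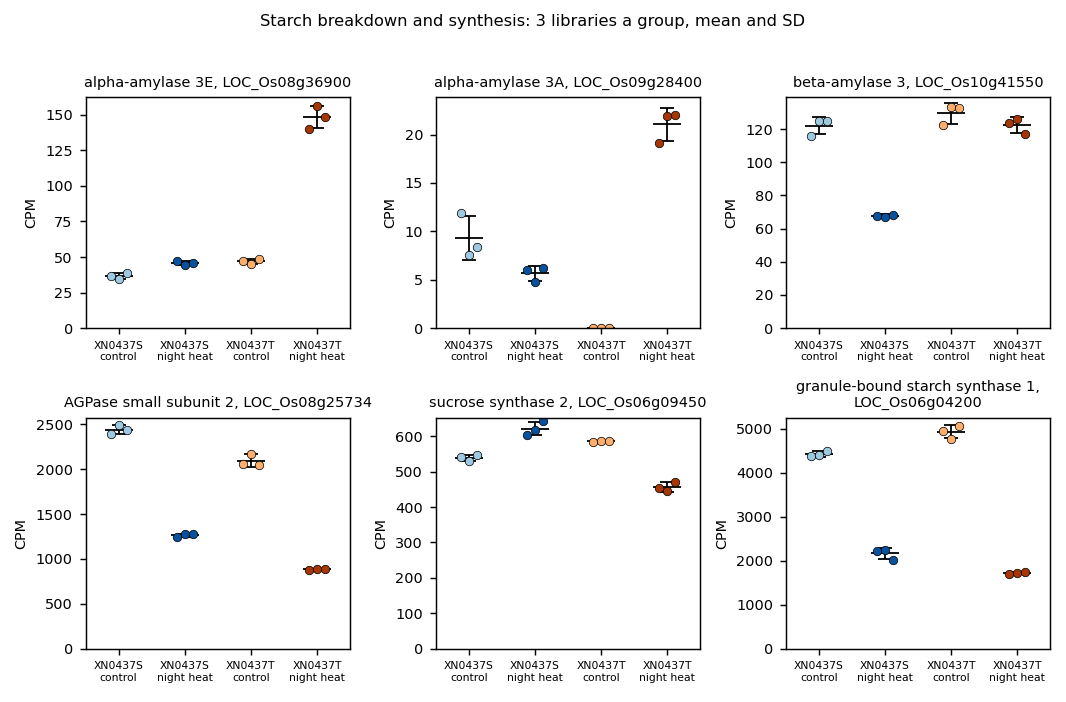
CPM (linear axis) of 6 loci of starch breakdown and synthesis in the 4 groups, with 3 libraries a group as points, the mean as a dash and the SD as bars. Alpha-amylase 3E reaches 140.4 to 156 CPM in stressed XN0437T and stays between 44.6 and 47.1 CPM in stressed XN0437S, whereas the 3 loci of the lower row are lower in stressed XN0437T than in stressed XN0437S.

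Seed storage proteins had 3 of 28 tested loci called higher and 0 lower, and 1 higher with libraries scaled by their totals alone. Their summed level was 68859 to 73891 CPM in stressed XN0437S and 79373 to 80195 CPM in stressed XN0437T, without overlap. Glutelin type-A 1 (LOC_Os01g55690), a main storage protein of the rice grain, had 11214, 11277 and 11915 CPM in XN0437S and 15299.5, 15236 and 14821 CPM in XN0437T, log2 0.40 ± 0.04 with an adjusted p of 0.000195. Glutelin type-B 5 (LOC_Os02g16820) had a log2 difference of 0.31 ± 0.05 (adjusted p = 0.00725). With log2 FPKM values as input, the first call was lost with a pseudocount of 0.1 and the second with 1 and with 0.1, and the second was also lost with library totals alone. Both loci were called higher in XN0437T in control too, at log2 values of 0.18 and 0.52, and 9 storage loci were called higher there. Glutelin genes of one type are close copies, so reads may have been split between them in the authors' counting. Oleosins, LEA proteins and dehydrins, proteins of the maturing embryo, had 1 of 26 called higher and 3 lower. With 1 stress library left out, 2 or 3 were lower, and 0 higher except without XN0437T replicate 3, where 1 was. Oleosin 16 kDa (LOC_Os04g46200), a coat protein of seed oil bodies, had 1254, 1178 and 1175 CPM against 891, 911 and 936 CPM (log2 -0.40 ± 0.04, adjusted p = 0.000232), and oleosin 18 kDa (LOC_Os03g49190) had a log2 difference of -0.24 ± 0.04 (adjusted p = 0.00761). The call on oleosin 18 kDa was lost with library totals alone. Both oleosins belong to the embryo markers whose sum was lower in XN0437T. Glutelin type-A 1 likewise belongs to the endosperm markers whose sum was higher, so these are not separate results.

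Sugar carriers and invertases had 2 of 67 members called higher and 4 lower. Of the higher calls, 0 were left without XN0437S replicate 1 or 3 or XN0437T replicate 1 or 2, and 1 without XN0437S replicate 2 or with library totals alone, while 3 or 4 stayed lower. A putative sugar transporter (LOC_Os07g39350) had 22.4, 22.7 and 25.1 CPM in XN0437S and 8.63, 10.2 and 9.15 CPM in XN0437T, a 2.51-fold lower level in the tolerant line (log2 -1.33 ± 0.08, adjusted p = 3.05e-06). The lines had 70.8 and 77.0 CPM in control. SWEET15 (LOC_Os02g30910), a sucrose exporter that in rice serves the filling grain, had 119.5, 120.2 and 116 CPM against 86.0, 78.8 and 82.5 CPM (log2 -0.52 ± 0.06, adjusted p = 0.000392). SWEET6b (LOC_Os01g42110) had a log2 difference of -0.68 ± 0.12 (adjusted p = 0.00813). Polyol transporter 5 (LOC_Os03g10090) had 242, 239 and 240.1 CPM against 156, 156 and 154 CPM (log2 -0.63 ± 0.04, adjusted p = 8.55e-06).

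Amino acid transporters had 7 of 55 members called higher and 2 lower. The higher count was 2, 4 and 3 without XN0437S replicate 1, 2 and 3, and 6, 4 and 5 without XN0437T replicate 1, 2 and 3. Of 3 loci described as amino acid permease 3, LOC_Os11g09020 was higher in XN0437T, with 8.33, 9.30 and 9.18 CPM against 15.6, 16.1 and 15.6 CPM (log2 0.82 ± 0.10, adjusted p = 0.000552). The neighbouring pair on chromosome 12 was lower: LOC_Os12g08090 had 25.8, 23.9 and 23.9 CPM against 10.9, 7.13 and 11.3 CPM, and LOC_Os12g08130 had 35.2, 30.3 and 26.4 CPM against 15.1, 13.3 and 15.0 CPM. Their log2 differences were -1.33 ± 0.17 and -1.08 ± 0.19 (adjusted p = 0.000772 and 0.00639, edgeR). For both, stressed XN0437T stood near the control levels (8.24 and 10.5 CPM for the former), and stressed XN0437S stood above all other groups.

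A minority of the phenylpropanoid enzymes differed between the lines under stress, and all of these were lower in the tolerant line. The pathway turns phenylalanine into lignin units and related phenolics, and phenylalanine ammonia-lyase (PAL) is its entry step. Of 71 tested loci, 0 were called higher and 11 lower, against 3 higher and 0 lower in control, and 8 to 10 were lower with 1 stress library left out. With libraries scaled by their totals alone, 7 were lower. The list's median log2 difference was -0.03. The PAL locus LOC_Os02g41680 (chromosome 2, 25006467 to 25009121) had 179, 179.8 and 176 CPM in XN0437S and 78.2, 83.4 and 75.8 CPM in XN0437T. That gap was wide beside the spread in either line (log2 -1.17 ± 0.05, adjusted p = 3.27e-07), whereas in control XN0437T was the higher line, at 453 against 385 CPM (adjusted p = 0.0209).

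A further PAL locus, LOC_Os05g35290, had 77.5, 75.2 and 69.3 CPM against 34.6, 38.2 and 34.4 CPM (log2 -1.05 ± 0.08, adjusted p = 1.04e-05), with 119.8 and 123 CPM in control. A PAL-like locus that joins LOC_Os04g43760 and LOC_Os04g43770 had a log2 difference of -0.48 ± 0.06 (adjusted p = 0.000712). Downstream, cinnamate 4-hydroxylase (trans-cinnamate 4-monooxygenase, LOC_Os05g25640) had 192 against 157 CPM (log2 -0.29, adjusted p = 0.00572), a call lost with library totals alone. The probable 4-coumarate-CoA ligase 5 (LOC_Os08g34790) had 19.4 against 11.6 CPM (log2 -0.74, adjusted p = 0.00181). Cinnamoyl-CoA reductases, the first step specific to lignin units, had log2 differences of -0.50 (LOC_Os08g34280, adjusted p = 0.000513) and -0.47 (LOC_Os09g25150, adjusted p = 0.000195). Laccase-10 (LOC_Os03g16610), one of the oxidases that polymerize lignin, had 4.11, 4.16 and 3.62 CPM against 1.28, 1.58 and 1.66 CPM (log2 -1.39 ± 0.12, adjusted p = 5.93e-05), far below the 50.7 and 53.9 CPM of the control groups. Apart from laccase-10, the loci of this paragraph were chosen after their values were seen.

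Cellulose synthases had 1 of 22 members called higher and 3 lower, and 3 were lower with any 1 stress library left out. The higher count was 1 without XN0437S replicate 3 or XN0437T replicate 1 and 0 without any other. Catalytic subunits 4, 7 and 9 are the set that in rice builds secondary walls. Subunit 7 (LOC_Os10g32980) had 33.9, 32.0 and 29.4 CPM in XN0437S and 13.4, 11.4 and 12.4 CPM in XN0437T, 2.56-fold lower in the tolerant line (adjusted p = 3.99e-06, edgeR). Subunit 9 (LOC_Os09g25490) had 37.5, 39.5 and 35.7 CPM against 24.1, 25.4 and 22 CPM (log2 -0.65 ± 0.08, adjusted p = 0.00086). Subunit 4 (LOC_Os01g54620) had 62.3, 60.7 and 60.2 CPM against 43.8, 44.2 and 49.7 CPM (log2 -0.41 ± 0.06, adjusted p = 0.00196), yet in control it was higher in XN0437T, at 180.1 against 131 CPM (adjusted p = 0.000948).

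A blue copper protein (LOC_Os06g11490) had 11.1, 10.1 and 8.99 CPM against 2.44, 2.55 and 3.60 CPM (log2 -1.82 ± 0.17, adjusted p = 9.2e-05). COBRA-like protein 5 (LOC_Os03g30250), of a family that helps to lay down cellulose, had 7.76, 7.42 and 6.34 CPM against 3.44, 1.12 and 1.62 CPM (log2 -1.80 ± 0.32, adjusted p = 0.00761). Germin-like protein 5-1 (LOC_Os01g14670) had 10.3 against 3.76 CPM (log2 -1.45, adjusted p = 0.00024). NAC domain protein 43 (LOC_Os08g02300), named after a master switch of secondary walls in Arabidopsis, had 5.12, 4.67 and 3.86 CPM against 2.29, 3.03 and 2.73 CPM (log2 -0.76 ± 0.14, adjusted p = 0.00948), was called in the fit over all 12 libraries but not in that over the 6 stress libraries, and was chosen after its values were seen. Expansin-B3 (LOC_Os10g40720), a wall-loosening protein, had 55.3 against 29.6 CPM (log2 -0.90, adjusted p = 8.61e-05) and was lower in XN0437T in control as well, at a log2 of -1.52, a change that passed the test (adjusted p = 0.0132). Expansins as a list had 3 of 33 called higher and 2 lower, and 1 or 2 in each direction with any 1 stress library left out.

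**Figure D4:**
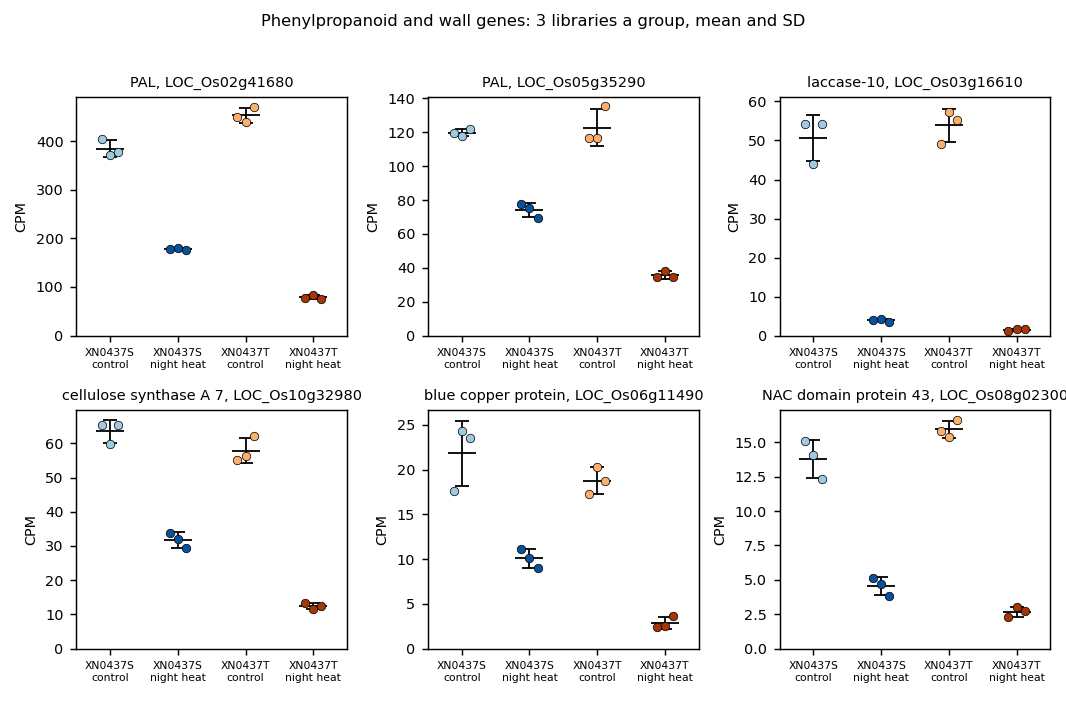
CPM (linear axis) of 6 phenylpropanoid and wall loci in the 4 groups, with 3 libraries a group as points, the mean as a dash and the SD as bars. In each panel stressed XN0437T is the lowest group; the PAL locus LOC_Os02g41680 stands at 75.8 to 83.4 CPM there and at 176 to 179.8 CPM in stressed XN0437S.

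Several genes for diterpenoid phytoalexins, antimicrobial compounds of rice that include the momilactones, oryzalexins and phytocassanes, were higher in the tolerant line under stress. This list was chosen after its values were seen, so its counts are a description only. It had 11 of 50 tested loci called higher and 2 lower, with a median log2 difference of 0.51 against 0.00 over all loci, and 9 to 11 were higher with 1 stress library left out. In rice, such genes lie in clusters on chromosomes 2 and 4. On chromosome 4, between 5318060 and 5486773 in the table's coordinates, 6 listed loci were tested and 3 were called higher. On chromosome 2, between 21662608 and 21906350, 9 were tested and 5 called higher.

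In the chromosome 4 cluster, syn-copalyl diphosphate synthase (LOC_Os04g09900), which opens the momilactone branch, had 1.14, 0.907 and 0.640 CPM in XN0437S and 3.74, 4.53 and 4.18 CPM in XN0437T (log2 2.21 ± 0.19, adjusted p = 5.12e-05). The pimaradiene synthase of the next step (LOC_Os04g10060) had 0, 0.150 and 0 CPM against 1.48, 1.0 and 1.77 CPM (adjusted p = 0.00464). CYP99A2 (LOC_Os04g10160), a cytochrome P450 of the same branch, had 1.03, 0.804 and 1.17 CPM against 5.50, 6.38 and 6.79 CPM, 6.22-fold higher in the tolerant line (adjusted p = 3.05e-06, edgeR). The momilactone A synthase between them (LOC_Os04g10010) had 0.0977, 0.0748 and 0 CPM against 1.0, 0.597 and 0.216 CPM and did not pass the test (adjusted p = 0.0653); it and the syn-copalyl diphosphate synthase were named after their values were seen. In control, these 4 loci had means of 8.23, 3.69, 11.2 and 1.26 CPM in XN0437S and of 7.22, 3.29, 9.83 and 0.630 CPM in XN0437T.

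In the chromosome 2 cluster, ent-copalyl diphosphate synthase 2 (LOC_Os02g36210), which makes the precursor of phytocassanes and oryzalexins, had 8.28, 7.19 and 7.30 CPM against 14.0, 14.8 and 15.9 CPM (log2 0.97 ± 0.09, adjusted p = 9.2e-05). The ent-cassadiene synthase (LOC_Os02g36140) had 6.28, 6.97 and 8.57 CPM against 10.8, 10.9 and 11.3 CPM, and its adjusted p of 0.0172 ranged from 0.00656 to 0.0766 with 1 stress library left out; the call held only without XN0437S replicate 3. A hydroxylase of this branch (LOC_Os02g36110) had 0.0684, 0.570 and 0.264 CPM against 5.29, 7.24 and 5.64 CPM (log2 4.32 ± 0.48, adjusted p = 0.000312), yet in control it was lower in XN0437T, at 2.2 against 7.43 CPM (adjusted p = 0.0296). Oryzalexin D synthase (LOC_Os02g36070) had 0, 0.168 and 0.132 CPM against 1.62, 1.86 and 1.60 CPM. Oryzalexin E synthase (LOC_Os02g36280) had 0, 0.0374 and 0.0377 CPM against 1.36, 0.713 and 0.779 CPM. Both passed the test (adjusted p = 0.00196 and 0.000347, edgeR), and with values so near 0 in XN0437S the fold is not well fixed. In a fit of the 6 stress libraries alone, the calls on ent-cassadiene synthase and on the pimaradiene synthase of chromosome 4 were lost, and 7 listed loci were called higher. The ent-copalyl diphosphate, ent-cassadiene and oryzalexin E synthases were named after their values were seen. For 4 of the 9 loci on chromosome 2 and 3 of the 6 on chromosome 4, the change of the line difference between control and stress passed the test.

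**Figure D5:**
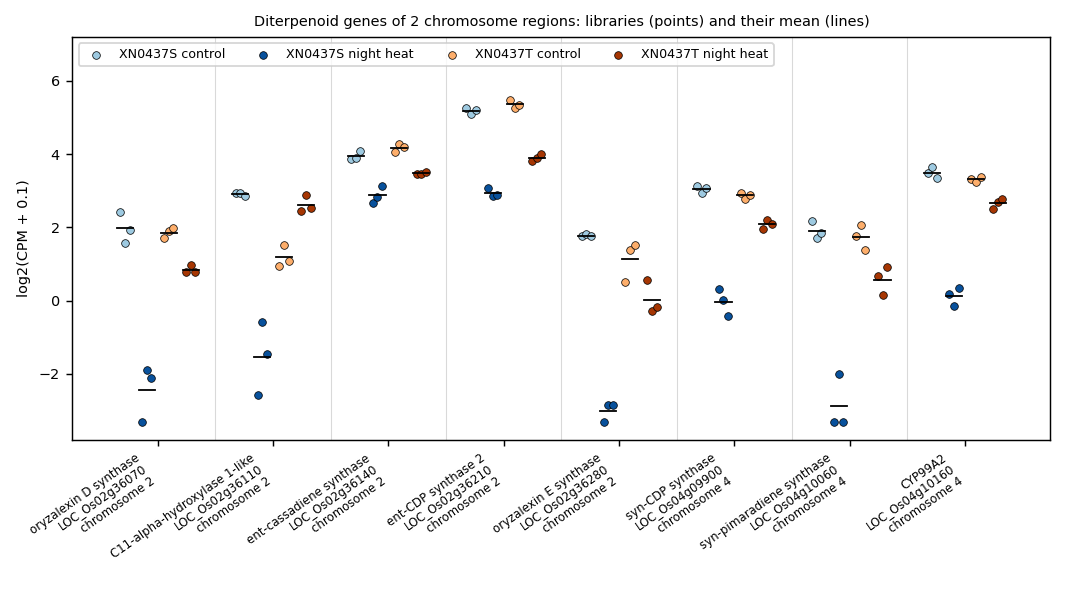
Level of 8 diterpenoid loci called higher in XN0437T under stress, 5 on chromosome 2 and 3 on chromosome 4, as log2(CPM + 0.1), with 3 libraries a group as points and their mean as a line. Stressed XN0437S (dark blue) is the lowest group at each locus, and stressed XN0437T (dark brown) lies above it in all 3 libraries; the loci were chosen after their values were seen.

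Outside the clusters, a locus joining LOC_Os08g39630 and LOC_Os08g39694, described as similar to cytochrome P450 76M5, had 91.5, 90.5 and 83.9 CPM against 220.1, 206 and 221 CPM (log2 1.28 ± 0.12, adjusted p = 0.000109). Another of that description, LOC_Os08g36310, went the other way, with a log2 difference of -1.18 ± 0.21 (adjusted p = 0.00651). The ent-copalyl diphosphate synthase 1 locus (LOC_Os02g17780), which in rice serves gibberellin synthesis, had 0.186, 0.215 and 0.339 CPM against 0.992, 0.983 and 0.741 CPM (log2 1.87 ± 0.34, adjusted p = 0.00816). This call was lost in a fit of the 6 stress libraries alone and with log2 FPKM plus 1, and the locus was chosen after its values were seen. Cytochrome P450 enzymes as a list had 7 of 163 called higher and 9 lower, one of them a cyclophilin (CYP20-1) that matched by its name, and 3 to 5 were higher with any 1 stress library left out.

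Other defence-related loci differed in both directions. Chitinase 1 (LOC_Os06g51060), which cuts fungal wall chitin, had 3.58, 5.31 and 4.38 CPM in XN0437S and 20.9, 19.9 and 19.8 CPM in XN0437T (log2 2.19 ± 0.13, adjusted p = 3.03e-06). Without stress the order was reversed, with 21.9, 20.6 and 22.5 CPM in XN0437S and 5.14, 5.45 and 4.78 CPM in XN0437T (log2 -2.08, adjusted p = 6.8e-06). A row of 3 neighbouring loci on chromosome 12 described as Bet v 1 or Dau c 1 allergens, a family that holds pathogenesis-related proteins, was higher in XN0437T. LOC_Os12g36830 had 1.44, 1.62 and 2.30 CPM against 6.40, 6.16 and 5.82 CPM (log2 1.78, adjusted p = 0.000185), and LOC_Os12g36850 had 1.60, 2.65 and 2.98 CPM against 5.95, 6.43 and 5.79 CPM (log2 1.33, adjusted p = 0.00288). The call on LOC_Os12g36860 (adjusted p = 0.0449) was lost without any 1 of the 6 stress libraries, at 0.0881 to 0.168, and these 3 loci were chosen after their values were seen. Lipoxygenases, which start the oxylipin pathway, had 0 of 11 called higher and 2 lower, among them LOC_Os08g39850 with 10.8 against 5.12 CPM (log2 -1.08, adjusted p = 0.00246).

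The GO list for defence response had 14 higher and 26 lower of 962, so that 4.16% were called, near the 3.4% of all loci. With any 1 stress library left out, 5 to 8 were higher and 16 to 20 lower. NB-LRR resistance proteins had 0 higher and 2 lower of 247, and receptor kinases 8 higher and 2 lower of 501, both below the 3.4% of all loci. With 1 stress library left out, 0 to 2 of the former were lower and 5 to 7 of the latter higher. The receptor kinase described as FLORAL ORGAN NUMBER1 (LOC_Os06g50340), which in rice restrains floral meristem size, had 8.67, 9.43 and 8.42 CPM against 18.9, 19.9 and 20.2 CPM (log2 1.15 ± 0.09, adjusted p = 1.36e-05) and was higher in XN0437T in control too, by a log2 of 0.87. Metacaspase-1 (LOC_Os03g27120), a cysteine protease linked in plants to cell death, had 8.78 against 18.9 CPM (log2 1.10, adjusted p = 1.35e-05). Class III peroxidases had 1 of 83 called higher and 4 lower, but 0 higher and 0 to 2 lower with any 1 stress library left out. The GO list for oxidative stress had 13 higher and 8 lower of 190, and 9 or 10 higher and 4 to 6 lower with any 1 stress library left out. Glutathione S-transferases had 1 and 1 of 59 (3.39%), and glycosyltransferases of small molecules 1 and 1 of 82 (2.44%), against 3.4% of all loci. In both of these lists either count was 0 or 1 with 1 library left out.

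NAC transcription factors had 3 of 65 called higher and 7 lower. NAC domain protein 2-like (LOC_Os03g60080) had 47.9, 47.0 and 42.8 CPM against 83.4, 78.1 and 82.1 CPM (log2 0.82 ± 0.07, adjusted p = 4.93e-05), and NAC 29 (LOC_Os12g03040) had 7.12, 3.61 and 7.51 CPM against 13.2, 16.1 and 15.3 CPM (log2 1.29 ± 0.23, adjusted p = 0.0075). NAC 83 (LOC_Os01g70110) was lower, with 82.0, 76.7 and 76 CPM against 45.8, 48.5 and 50.1 CPM (log2 -0.70 ± 0.06, adjusted p = 4.93e-05). NAC 83 was chosen after its values were seen. The lower count of NAC factors was 3 without XN0437T replicate 1 and 4 without XN0437T replicate 3. Of 68 WRKY factors, 0 were called higher and 2 lower, a share of 2.94% against 3.4% of all loci. Probable WRKY 30 (LOC_Os09g16510) had 10.1, 11.2 and 9.25 CPM against 2.06, 2.29 and 3.46 CPM (log2 -1.97 ± 0.22, adjusted p = 0.00036). Its level in stressed XN0437T was near the 2.15 and 1.98 CPM of the control groups.

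MYB factors had 2 of 90 called higher and 1 lower (3.33%), and MADS-box factors 0 higher and 1 lower of 39 (2.56%), against 3.4% of all loci. MYB2 (LOC_Os03g20090), which in rice acts in stress tolerance, had 3.71, 4.43 and 3.74 CPM against 1.06, 1.21 and 1.08 CPM (log2 -1.82 ± 0.30, adjusted p = 0.00483), and the Zm38-related factor (LOC_Os08g43550) had 7.36 against 14.7 CPM (log2 1.0, adjusted p = 0.00164). Of 95 ERF and DREB factors, 2 were called higher and 4 lower, and 1 or 2 higher and 1 to 3 lower with any 1 stress library left out. RAP2-4 (LOC_Os08g31580) gave the largest difference by log2 fold among them but rested on uneven libraries, 2.00, 2.18 and 1.5 CPM against 49.2, 47.1 and 4.40 CPM. Its adjusted p of 0.0152 reached 0.075 with a library left out, and the call was lost without any 1 of the 3 XN0437S libraries. F-box proteins, which select targets for degradation, had 9 of 274 called higher and 4 lower, a share of 4.7% against 3.4% of all loci. With 1 stress library left out, 2 or 3 were lower, and 5 were higher except without XN0437S replicate 3 or XN0437T replicate 2, where 7 were. F-box/kelch-repeat protein LOC_Os06g39370 had 24.9, 27.1 and 21.6 CPM against 61.1, 58.9 and 61.1 CPM (log2 1.30 ± 0.09, adjusted p = 8.11e-06), and PP2-A13 (LOC_Os03g02550) had 7.49 against 20.3 CPM (log2 1.43, adjusted p = 0.00076).

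Photosynthesis proteins had 2 of 76 called higher and 8 lower, with 3 to 5 lower when any 1 stress library was left out and 4 with libraries scaled by their totals alone. The summed level of the 76 loci overlapped between the lines, at 24355 to 29099 CPM in XN0437S and 27837 to 34227 CPM in XN0437T. Of 107 loci on the GO photosynthesis list, 4 were called higher and 13 lower. With 1 stress library left out, 1 to 3 were higher, and 6 or 7 were lower except without XN0437S replicate 3, where 10 were. Plastocyanin (LOC_Os06g01210), the copper carrier between the photosystems, had 77.6, 75.1 and 80.0 CPM against 53.2, 53.4 and 56.1 CPM (log2 -0.52 ± 0.08, adjusted p = 0.00239), and was chosen after its values were seen. A Rubisco small subunit (LOC_Os12g19470) had 50.0 against 32.0 CPM (log2 -0.64, adjusted p = 0.000812), and the plastid fructose-1,6-bisphosphatase (LOC_Os03g16050) of the Calvin cycle had 6.55 against 3.62 CPM (log2 -0.85, adjusted p = 0.000392). The Rubisco locus is one of the 5 green tissue markers, whose sum was lower in XN0437T. A locus on chromosome 4 that carries a photosystem II D2 description, a plastid-encoded protein, had 808, 804 and 799 CPM against 1599.8, 1208 and 1554 CPM. Its adjusted p of 0.0319 was past the threshold only with all 6 stress libraries or without XN0437T replicate 2, and between 0.0337 and 0.113 when a library was left out.

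Cytosolic ribosomal proteins had 0 of 155 called higher and 4 lower under stress, against 0 higher and 107 lower in control. Their stress share of 2.58% was below the 3.4% of all loci. The lower count under stress was 0 to 2 with any 1 stress library left out, 0 with libraries scaled by their totals alone or in a fit of the 6 stress libraries, and 2 with relative log expression in place of TMM factors. It was 15 with DESeq2, and 14 and 9 with log2 FPKM plus 1 and plus 0.1. The list's median log2 difference was -0.14 under stress and -0.50 in control, and the change of the line difference passed the test for 32 of the 155. Under stress, 27 of the 155 had a log2 difference above 0. All 3 tolerant libraries lay below all 3 sensitive ones at 61 of the 155 loci and above them at 4, against 11.2% and 11.3% of all tested loci. With library totals alone, the medians were -0.13 and -0.39, and 59 loci were lower in control. The TMM factors were 0.838 to 0.981 in the control libraries and 1.11 to 1.18 in the stress libraries. Of 274 loci on the GO translation list, 2 were higher and 9 lower under stress, a share of 4.01% against 3.4% of all loci. With any 1 stress library left out, 0 to 2 were higher and 4 or 5 lower.

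Lipid transfer proteins had 2 of 54 called higher and 4 lower, aquaporins, the water channels, 1 and 2 of 27, and transposon-annotated loci 0 and 2 of 110. With 1 stress library left out, the lower counts were 2 or 3, 0 to 2 and 1 or 2, and the higher counts 1 or 2, 0 or 1 and 0. LOC_Os03g59380 had 21.1 against 13.9 CPM under stress (log2 -0.60, adjusted p = 0.00465) and 69.7 against 18.4 CPM in control (log2 -1.92). LOC_Os05g47730 was higher in XN0437T, with 2.86, 5.21 and 5.16 CPM against 9.10, 9.51 and 9.55 CPM (log2 1.09 ± 0.21, adjusted p = 0.0121). A locus of wax and suberin synthesis, 3-ketoacyl-CoA synthase 4 (LOC_Os05g49290), which lengthens fatty acids, had 49.5, 13.4 and 49.1 CPM in XN0437S and 5.37, 9.57 and 9.55 CPM in XN0437T. XN0437S replicate 2 lay far below the other 2 sensitive libraries, and the adjusted p of 0.00693 ranged from 6.01e-05 to 0.038 with 1 stress library left out. The call was lost in a fit of the 6 stress libraries alone.

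Among the remaining large differences, a DC1 domain protein (LOC_Os12g40470) had 1.05, 1.18 and 1.32 CPM against 6.13, 9.31 and 6.85 CPM (log2 2.65 ± 0.27, adjusted p = 0.000149). A locus joining LOC_Os04g31790 and LOC_Os04g31804, described as a truncated CAULIFLOWER-like factor, had 7.79, 12.9 and 13.9 CPM against 45.8, 43.9 and 45.3 CPM (log2 1.96 ± 0.19, adjusted p = 0.000108). LOC_Os11g02379, described only by a locus tag, had 22, 21.6 and 16.3 CPM against 75.8, 67.5 and 65.3 CPM (log2 1.80 ± 0.14, adjusted p = 1.65e-05). Proline-rich protein 2 (LOC_Os10g05750), of a family of wall proteins, had 6.25 against 2.04 CPM (log2 -1.61, adjusted p = 0.000694) and was lower in XN0437T in control as well (log2 -2.37). A pair of calls was lost when stress libraries were left out. A probable steroid-binding protein (LOC_Os02g55060) had 1.76, 1.87 and 2.00 CPM against 23.0, 2.16 and 17.8 CPM, and its adjusted p of 0.0203 became 0.0889 at most; the call held only without XN0437T replicate 2. EXO70E2 of the exocyst (LOC_Os08g13570), which tethers secretory vesicles, had 5.56 against 2.02 CPM, with an adjusted p of 0.0272 that became 0.0685 to 0.115 without any 1 of the 6 stress libraries.

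At high levels, selenium-binding protein 1 (LOC_Os01g68770) had 246, 242 and 244 CPM against 366, 366 and 391 CPM (log2 0.62 ± 0.04, adjusted p = 8.09e-06). Lichenase-2 (LOC_Os05g31140), which cuts mixed-linkage glucan of grass walls, had 218, 199 and 194 CPM against 314, 321 and 312 CPM (log2 0.63 ± 0.05, adjusted p = 3.86e-05). The abscisic acid receptor PYL3-like (LOC_Os06g33640), which senses the hormone, was lower in XN0437T, with 114, 117 and 116 CPM against 77.0, 72.4 and 72.1 CPM (log2 -0.65 ± 0.06, adjusted p = 4.74e-05). Nucleoside diphosphate kinase 1 (LOC_Os07g30970), which balances nucleotide pools, had 120.3 against 77.4 CPM (log2 -0.64, adjusted p = 0.0042). A GDSL esterase locus joining LOC_Os06g06260 and LOC_Os06g06250 had 110.4 against 69.2 CPM (log2 -0.67, adjusted p = 4.93e-05), and both of these last loci were called lower in XN0437T in control too (log2 -0.57 and -0.59). The nitrate regulatory gene 2 locus (LOC_Os09g37520) had 139, 117 and 120.2 CPM against 229, 161 and 176 CPM, with an adjusted p of 0.0364 that held only without XN0437T replicate 2 and otherwise rose to 0.14 at most.

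A total of 3 loci had 0 counts in all 3 stress libraries of one line and at least 1 CPM in each of the other; none has a description, and all 3 were named after their values were seen. MSTRG.20786, an assembled locus on chromosome 4 (32878401 to 32879692), had 3536, 3880 and 4359 counts in stressed XN0437S and 0 in each stressed XN0437T library, though the controls of both lines had 978 to 1874 counts. LOC_Os06g03200 had 0 counts in stressed XN0437S and 106, 158 and 171 in stressed XN0437T, and in control 322, 193 and 187 in XN0437S and 0 in each XN0437T library. LOC_Os06g39690 had 0 counts in all 6 libraries of XN0437S, 329, 336 and 302 in stressed XN0437T, and 314, 0 and 0 in the XN0437T controls. This last locus did not pass the test under stress (adjusted p = 0.12, edgeR). A count of 0 allows up to 3 counts in a library of this depth, for counting error only.

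Called loci lay on all 12 chromosomes, with 2.58% to 3.94% of tested loci called on each and 0.493% to 0.927% called at 2-fold or more. Of 380 windows of 1 Mb with at least 20 tested loci, 219 held no 2-fold call and 18 held 3 or more. The highest share of 2-fold calls was on chromosome 4 between 10000001 and 11000000, with 4 of 36 loci, all higher in XN0437T. A pair of overlapping assembled loci named LOC_Os04g18710, with no description, gave 2 of the 4, with means of 3.36 CPM in XN0437S against 15.2 CPM in XN0437T for one and of 3.81 against 29.2 CPM for the other. In the same window 3 loci were called at 2-fold in control. The third window in this order, on chromosome 4 between 5000001 and 6000000, held the diterpenoid cluster as its 3 calls of 49 loci, with 0 in control. The fifth, on chromosome 12 between 22000001 and 23000000, held the 3 allergen-like loci, of 59 tested. Among 4822 tested assembled loci without a gene name, 69 (1.43%) were called, below the 3.4% of all loci.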

How the data were processed

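RNA was depleted of rRNA and made into strand-marked paired libraries read to 150 bases, per the labels' protocols. Per the submitters' processing notes, the authors' tools included StringTie 2.1.6, HISAT2 2.2.1, cutadapt 1.9, edgeR and DESeq2. Those notes name a mouse genome build, whereas the loci carry rice identifiers of MSU release 7.0, so the build of the coordinates is unknown here. The deposited table gives counts and FPKM values per assembled locus, as per the file headers. Among low deposited counts (1 to 20), 37.6% to 38.7% in the stress libraries were multiples of 4, so the counts may not be single fragments.

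Of 50708 loci, 11620 had no counts. Counts were tested with edgeR 4.0.16 (filterByExpr, TMM, 4 group means over 12 libraries, quasi-likelihood, two-sided; R 4.3.3), with Benjamini-Hochberg adjustment over 33281 loci and a threshold of 0.05. Errors of log2 differences are approximate standard errors, derived as the absolute log2 difference divided by the square root of the test's F value. DESeq2 1.42.0 and limma 3.58.1 (on log2 FPKM values plus 1 or 0.1) were alternatives, as were other scalings, no filter, counts divided by 4, a replicate block and each library left out. On simulated data for the stress comparison, with 33281 loci, the fit recovered 61 of 100 loci changed 2-fold and 91 of 100 changed 4-fold, with 8 false calls. The changed loci had a mean of at least 1 CPM. Each locus was drawn with the spread fitted for its level, without variation between loci of one level. The simulation therefore does not cover changed loci below 1 CPM or loci with uneven libraries.

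The gene lists, built from words in the description and GO columns, and all named loci were chosen with earlier results of these data known. The rule for named loci took, among called loci whose groups did not overlap, up to 3 per list and direction with at least 1 CPM. It also took the 10 of these with the highest log2 change in each direction with at least 5 CPM. The 5 called loci with the highest CPM in each direction at 1.5-fold or more were added, whether or not their groups overlapped. Of 108 named loci, 31 are outside this rule. For loci taken by list or by log2 change, non-overlap was a condition of naming and is no separate support. The search words of the GO translation list were corrected once the table was seen. One endosperm marker was left out because the table gives its identifier another gene. No sequences are shown. Intervals and floors (3 counts) cover counting error only.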

Additional observations from a re-analysis of the deposited data

Results flagged for a closer look

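The line difference itself differed between stress and control at 867 loci (edgeR interaction test, adjusted p under 0.05), and the loci named below are among them. The values below are the line difference under stress minus that in control on the log2 scale, where a positive value means that XN0437T stood higher under stress than the control difference would give.

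Among chaperones, the value was 0.65 for BiP1 and 1.08 for protein disulfide isomerase-like 2-3. It was 1.18 for the P58IPK homolog B, 0.77 for the stromal cell-derived factor 2-like protein and 0.68 for LOC_Os06g50300. The DnaJ proteins had 0.96 (ERDJ3A), 0.93 (DnaJ 11) and 0.44 (ERDJ3B). The mitochondrial small heat shock protein had 0.76 and LOC_Os05g38530 had 0.41.

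Among starch and sugar loci, the alpha-amylases had 1.35 (3E), 10.98 (3A), 8.66 (3D) and 3.17 (LOC_Os02g52710). The values of 3A and 3D rest on control levels near 0 in XN0437T and are no measure of fold. Beta-amylase 3 had 0.77 and the cytosolic fructose-1,6-bisphosphatase 0.71. Negative values were found for the ADP-glucose pyrophosphorylase small subunit 2 (-0.29), sucrose synthases 2 and 4 (-0.57 and -0.63), branching enzyme 2 (-0.33), granule-bound starch synthase 1 (-0.49) and pyruvate, phosphate dikinase 1 (-0.31). They were also found for SWEET15 (-0.42), the putative sugar transporter (-1.45), polyol transporter 5 (-0.77) and the oleosins of 16 and 18 kDa (-0.47 and -0.30). The amino acid permeases had 0.83 on chromosome 11 and -1.67 and -1.59 on chromosome 12.

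Among phenylpropanoid and wall loci, the PAL loci had -1.41 (LOC_Os02g41680), -1.09 (LOC_Os05g35290) and -0.43 (the PAL-like locus). Cinnamate 4-hydroxylase had -0.44, the cinnamoyl-CoA reductases -0.75 and -0.68, and laccase-10 -1.48. Cellulose synthases 7 and 4 had -1.22 and -0.87. The value was -1.60 for the blue copper protein, -1.26 for germin-like protein 5-1, -0.97 for NAC 43 and -2.60 for 3-ketoacyl-CoA synthase 4. Expansin-B3 and the lipid transfer protein LOC_Os03g59380 had 0.62 and 1.32.

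Among diterpenoid loci, the values on chromosome 2 were 4.22 (oryzalexin D synthase), 6.08 (the hydroxylase), 0.78 (ent-copalyl diphosphate synthase 2) and 5.76 (oryzalexin E synthase). On chromosome 4 they were 2.40, 4.94 and 2.83 for the 2 synthases and CYP99A2. The P450 76M5-like pair LOC_Os08g39630 and LOC_Os08g39694 had 0.99. Chitinase 1 had 4.27, and the allergen-like loci had 2.39, 1.93 and 3.24.

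Among the other loci, NAC 2-like had 0.68, the Zm38-related MYB 1.14, WRKY 30 -1.85, metacaspase-1 1.03, and the F-box loci 1.49 and 1.32. The lipoxygenase LOC_Os08g39850 had -1.66, plastocyanin -0.48 and the plastid fructose-1,6-bisphosphatase -0.87. Selenium-binding protein 1 had 0.51, lichenase-2 0.54 and PYL3-like -0.70. The DC1 domain protein had 2.72, the CAULIFLOWER-like locus 1.56 and LOC_Os11g02379 2.2. The fitted values of 21.16 for LOC_Os06g03200 and -14.97 for MSTRG.20786 come from groups at 0 counts and are no measure of fold.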

How the results depend on the processing

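Of 106 called loci named in the report, 66 were called in the same direction under every alternative and with each library left out, and none reversed. The stress count of 1132 became 696 with libraries scaled by their totals alone, 1971 with DESeq2, and 672 to 763 with 1 stress library left out. Of the 1971 DESeq2 calls, 1122 were among the 1132. With one exception given below for the replicate block, the other stress counts lay between 862 (replicate block) and 1571 (log2 FPKM plus 1 with limma), among them 994 from the 6 stress libraries alone. Of those 994 calls, 788 were among the 1132. Their share higher in XN0437T was 59.2%, against 50.2% in the main fit. The control count of 1804 became 3018 with DESeq2 and 1098 to 1358 with 1 library left out. The count of 867 changed line differences became 1752 with DESeq2 and 622 to 801 with 1 library left out. The share of control calls higher in XN0437T was 46.6%, and 75.2% with library totals and 66.8% with log2 FPKM. For the changed line differences the share toward higher was 48.7%, and 32% with library totals and 35% or 32.4% with log2 FPKM plus 1 or 0.1. Outside the fits with a replicate block, 8 of the named calls were lost with library totals, 4 or 5 with log2 FPKM, 7 with the stress libraries alone and 6 to 10 with a stress library left out.

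Whether the replicate numbers pair the libraries was not settled. Correlations of same-numbered libraries' deviations ranged from -0.0123 to 0.0287 over 18 pairs. Against the other line's stress libraries alone, 2 of 6 stress libraries correlated best with their own number. Between control and stress of XN0437S, same-numbered values were 0.0287, 0.0274 and 0.0138, and unlike-numbered ones -0.0242 to -0.00346. In XN0437T the same-numbered values were -0.00872, -0.0105 and 0.0138, and unlike-numbered ones -0.0103 to 0.0190. With the replicate block, 862 stress loci, 1410 control loci and 630 changed line differences were called. With the block in the 6 stress libraries alone, where few residual degrees of freedom remain, 290 were called, and 32 of the 106 named calls were lost, against 5 with the block in all 12 libraries. The causes of these shifts were not tested. Depth limits the loci near 0 counts, where folds are not well fixed.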
